A study of Mus musculus with 21 samples.

Results

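The genes of presynaptic vesicle release, 43 in all, were followed in mice that lack cystatin B (Cstb-/-), a model of progressive myoclonus epilepsy of Unverricht-Lundborg type. Members were listed by gene symbol, and every probe set annotated to one of these symbols alone was taken, which gave 112 of the 45037 probe sets tested, or 43 of 18193 genes. RNA of whole cerebellum at postnatal day 7 (P7, before symptoms) came from 4 Cstb-/- and 4 control samples, and at P30 (symptomatic) from 3 and 3. RNA of cerebellar granule cells, dissected at P5 and cultured for 2 days, came from 3 Cstb-/- and 4 control cultures, to which an inhibitor of proliferation, AraC, had been added against glial growth. All mice were 129SvJ. Controls were wild type littermates, and the knockout is constitutive, so that it is carried by every cell of the tissue.

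At a presynaptic terminal, neurotransmitter is stored in vesicles that synapsins hold in reserve. Rab3 GTPases and the scaffold of the active zone bring vesicles to the release site, Munc13 and CAPS proteins prime them, and synaptotagmins sense the calcium influx that triggers fusion by the SNARE proteins, after which the membrane is recovered by endocytosis. In the cerebellum this machinery serves the parallel fibres of granule cells, the climbing and mossy fibres, and the inhibitory terminals of interneurons and Purkinje cells, and most of it is assembled during the first postnatal weeks.

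Each value is a log2 signal of an array relative to the control mean of the same probe set and experiment, so it states a difference and not a level. Levels had been removed by centring each probe set, so neither the detection of a gene nor its level relative to another gene can be given, and the identity of the tissue could not be checked on marker levels. For a call, limma had to give a fold of at least 1.3 together with a Benjamini-Hochberg adjusted p, over all probe sets, below 0.05 (cerebellum) or 0.01 (culture). Groups were said not to overlap when all Cstb-/- arrays lay above, or all below, all control arrays. Since tissue and cultures are mixtures, fewer cells of a type and less RNA per cell cannot be told apart.

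The labels held for the targeted gene: both Cstb probe sets were lower on each Cstb-/- array, by -3.57 to -2.21 at P7, -2.82 to -2.68 at P30 and -2.22 to -1.77 in culture. Some arrays stood apart. Cstb-/- array 5 at P7 carried a signal of 3.39 at the 18S control probe sets, against at most 0.64 on the control arrays of that age. Males were 3 of 4 among Cstb-/- and 1 of 4 among control arrays at P7, and in culture the sex-linked transcripts went against the labelled sex on Cstb-/- arrays 1 and 2. On the deposited scale, a probe set of Xist was at -0.23 on culture control array 7, labelled male, beside -6.78 on control array 4, also male. One of the Y-linked Eif2s3y was at 0 on control array 8, labelled female, beside -2.46 on control array 5, also female. At P30, the sex-linked transcripts did not separate the Cstb-/- array labelled female from the arrays labelled male. The paper states that the P30 mice used for the arrays were all males. In the cultures 51.3% of probe sets, and 46 of the 112 members, held the same value on more than 1 array.

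At P7 most members were higher in Cstb-/- cerebellum, by a small amount spread over many genes. The list was chosen with earlier results of these data known, so counts over it describe the members and test nothing. Of the 112 probe sets 91 were higher, against 53.7% of all probe sets, and the median difference was 0.14, against 0.010 over all. Of the 43 genes 39 had a higher mean over their probe sets, and 27 had all their probe sets higher. No single member passed the test, where 0.00666% of all probe sets did (3, all lower). At an unadjusted p under 0.05 limma found 26 members, all higher, against 9.45% of all probe sets in either direction and 4.47% higher, and the smallest adjusted p among members was 0.365. The methods' own test, corrected over all probe sets, also found 0 changed members, and 19 at an unadjusted p under 0.05. It called only 1 of all probe sets, so its 0 says little about the members. Corrected over the probe sets past the fold, it called 203 of all probe sets and 0 members. The genotypes did not overlap at 17 members, all higher, against 2.8% of all probe sets higher and 5.65% in either direction. With the mean over the probe sets of each gene, 11 of the 43 genes did not overlap, against 6.55% of all genes. By array, the median over the members was 0.063, 0.15, 0.20 and 0.094 on the Cstb-/- arrays and 0.025, -0.0034, -0.018 and 0.014 on the control arrays. The lowest Cstb-/- array thus lay above the highest control array. Array 3 was the highest Cstb-/- and the lowest control array: without the former the median difference was 0.098 and without the latter 0.099. The count at an unadjusted p under 0.05 was lower by over 1.5 times without Cstb-/- array 3 (13), Cstb-/- array 2 (16), control array 4 (16) or control array 2 (17). With the labelled sex as a covariate 79 members were higher (median 0.12) and 2 were called higher, Syt4 1415845_at and Rims2 1450761_s_at, where 1108 of all probe sets were called. Without Cstb-/- array 5, the array of high 18S signal, the median was 0.13.

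At P30 most members were lower, by little. Of the 112 probe sets 76 were lower, and the median difference was -0.054, against -0.0078 over all probe sets, of which 53% were lower. No member passed the test, against 0.144% of all probe sets (65, of which 62 were higher). At an unadjusted p under 0.05 limma found 8 members, a share of 7.14% beside 7.72% of all probe sets. Of these 3 were higher and 5 lower, beside 4.16% and 3.55% of all probe sets. The count was 4 without control array 1, 5 without Cstb-/- array 1, 12 without Cstb-/- array 2 and 15 without control array 3. The methods' own test, corrected over all probe sets, found 0 as well, where it called only 1 of all probe sets. Genotypes did not overlap at 16 members, or 14.3% beside 12.5% of all probe sets. Of these 5 were higher and 11 lower, beside 6.24% and 6.25%. With the mean per gene 9 of the 43 did not overlap, beside 12.9% of all genes. The array medians were -0.031, -0.016 and -0.041 for Cstb-/- and 0.016, -0.00074 and -0.020 for control. Here the ranges overlapped.

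In cultured granule cells 77 of the 112 probe sets were lower, with a median of -0.13, against -0.025 over all probe sets, of which 54.5% were lower. The test called 2 members, both lower: one probe set of Rab3a and one of Sv2b. Over all probe sets 2.54% were called, 2.07% higher and 0.469% lower. No member was called by the methods' own test corrected over all probe sets (28 at an unadjusted p under 0.05), with robust eBayes in limma (33), after quantile normalization (30) or with the labelled sex as a covariate (38), and single arrays left out gave 0 to 4. At the adjusted p of 0.05 used for the cerebella, 7 members were called, all lower, beside 9.05% of all probe sets in either direction and 2.21% lower. At an unadjusted p under 0.05 there were 34 members, a share of 30.4% beside 31.6% of all probe sets, but 27 of the 34 were lower and 7 higher, beside 13.3% and 18.3% of all probe sets. Genotypes did not overlap at 30 members, 27 of them lower and 3 higher, against 9.33% of all probe sets lower, 13.4% higher and 22.8% in either direction. With the mean per gene 15 of the 43 did not overlap, beside 27.2% of all genes. The array medians were -0.049, -0.22 and -0.077 for Cstb-/- and 0.0038, -0.029, 0.022 and -0.0041 for control. All Cstb-/- arrays lay below all control arrays, and array 2 was the lowest: without it the median difference was -0.082.

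**Figure D1:**
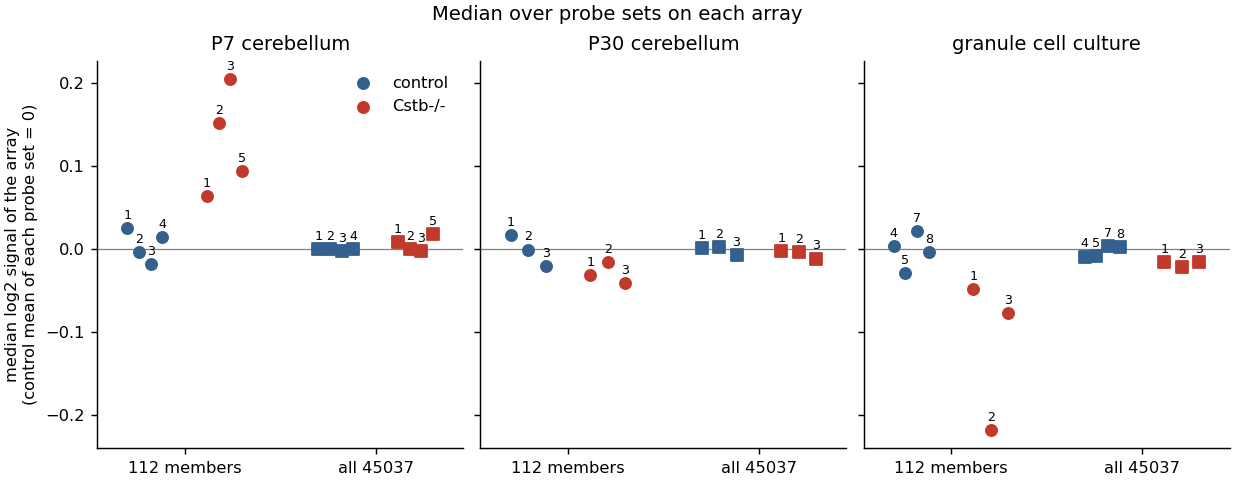
Median log2 signal of each array (vertical axis; the control mean of each probe set is 0) over the 112 members (circles) and over all 45037 probe sets (squares), with the replicate number beside each point. At P7 the Cstb-/- arrays sit between 0.063 and 0.20, above all control arrays, and in culture between -0.22 and -0.049, below them, while the medians over all probe sets stay near 0.

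**Figure D2:**
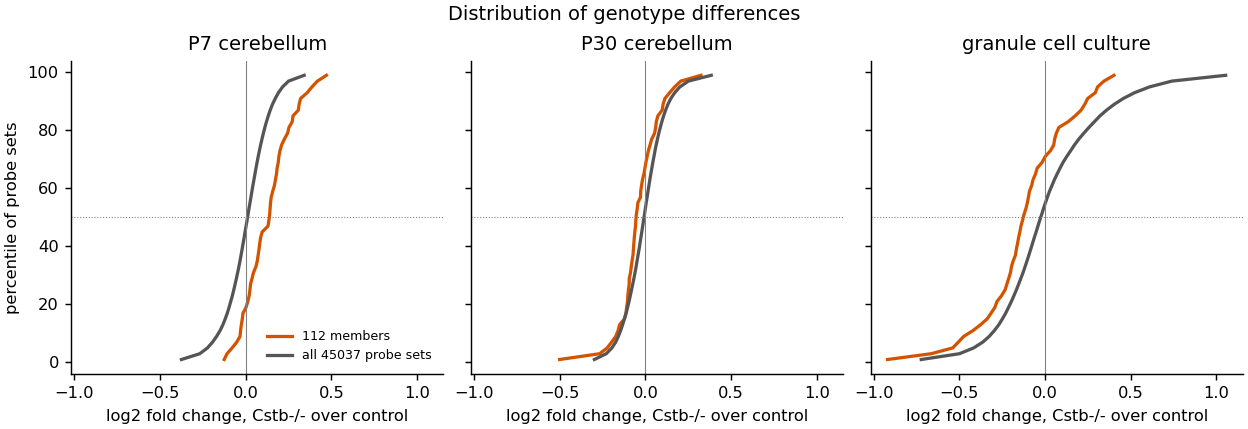
Percentile of probe sets (vertical axis) against the log2 fold change of Cstb-/- over control (horizontal axis), for the members and for all probe sets. The member curve lies right of the other at P7 (median 0.14 beside 0.010) and left of it in culture (-0.13 beside -0.025).

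Of the 112 probe sets, 41 were higher at P7 and lower in both P30 cerebellum and culture. A further 22 were lower at P30 alone and 20 lower in culture alone, 8 were higher and 10 lower in all 3 experiments, and the remaining 11 showed the other combinations. The differences by role, from sensors to adhesion molecules, follow.

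**Figure D3:**
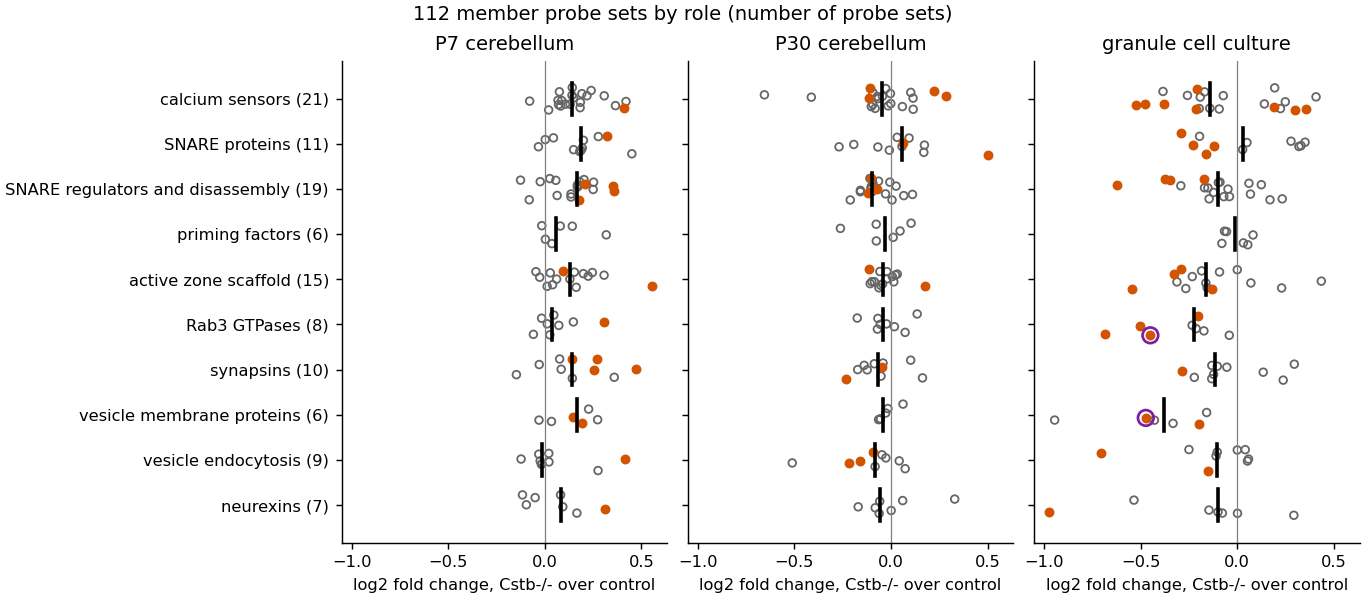
Log2 fold change of Cstb-/- over control (horizontal axis) for each of the 112 member probe sets, grouped by role. Filled orange points did not overlap between genotypes, black bars are medians, and the 2 purple rings mark the probe sets called in culture, 1 of Rab3a and 1 of Sv2b.

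The group of calcium sensors comprised 21 probe sets of 7 genes, 5 of them of Syt11, a relative that does not sense calcium. At P7, 20 of the 21 were higher (median 0.14), at P30 15 were lower (median -0.044), and in culture 13 were lower (median -0.14). Syt7, a synaptotagmin of high calcium affinity that serves facilitation and asynchronous release, was higher at P7 with all 4 probe sets. Its probe set 1460081_at stood at 0.30, 0.43, 0.65 and 0.27 on the Cstb-/- arrays and 0.16, 0.20, -0.41 and 0.048 on the control arrays. These values did not overlap, although control array 3 lay far below the other controls, and the difference was 0.41 (SE 0.13, limma adjusted p = 0.422). In culture all 4 probe sets of Syt7 were lower. At 1441927_at the Cstb-/- cultures stood at -0.45, -0.47 and -0.51 and the controls at -0.14, -0.042, 0.14 and 0.039, 2 tight groups well apart, with a difference of -0.48 (SE 0.083, adjusted p = 0.0125), which passed at 0.05 but not at 0.01. A second one, 1439633_at, was lower by a similar -0.38 (SE 0.12), with Cstb-/- array 1 close to the controls.

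Syt11, a synaptotagmin that does not bind calcium and acts in vesicle trafficking, was higher in culture with all 5 probe sets, against the direction of most members. At 1449264_at the cultures stood at 0.33, 0.35 and 0.21 for Cstb-/- and 0.11, -0.19, 0.17 and -0.092 for control, with a difference of 0.30 (SE 0.10, adjusted p = 0.0962). At 1456464_x_at the difference was 0.36 (SE 0.11, adjusted p = 0.0696). The 3 members that were higher without overlap in culture were all Syt11, none of which passed the test. All 5 were higher at P7 too, by 0.068 to 0.42, and all 5 were lower at P30, by -0.12 to -0.082.

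Syt1, the main sensor of fast synchronous release, had probe sets that disagreed in culture: 1421990_at was at 0.41 (SE 0.18) and 1438282_at at -0.52 (SE 0.19). At P7 all 4 were higher, by 0.020 to 0.18. Doc2b, a sensor of spontaneous release, was higher at P30 with both probe sets and without overlap. At 1420666_at its Cstb-/- arrays stood at 0.42, 0.31 and 0.12 and the control arrays at -0.11, 0.095 and 0.010, so that array 3 came close to the highest control, and the difference was 0.28 (SE 0.095, adjusted p = 0.539). In culture both Doc2b probe sets were lower, by -0.26 and -0.21. Syt4 had the largest negative difference of the members at P30, -0.66 at 1415844_at (SE 0.32), but its arrays overlapped, with -0.28, -1.31 and -0.37 for Cstb-/- and -0.24, 0.68 and -0.44 for control. Array 2 of each genotype gave the extreme values, and the adjusted p was 0.685. Syt2, the fast sensor of many hindbrain terminals, and Syt3 were higher at P7 at all 4 of their probe sets, by 0.075 to 0.31, and lower in culture at all 4, by -0.20 to -0.072, none of which passed.

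The SNARE proteins, which zip together to drive fusion, comprised 11 probe sets of 5 genes, of which 10 were higher at P7 (median 0.19). At P30 7 of the 11 were higher (median 0.057) and in culture 6 were higher (median 0.028), where most members were lower. Vamp1, a vesicle SNARE, was higher at P7 with both probe sets. At 1421862_a_at the Cstb-/- arrays stood at 0.43, 0.21, 0.27 and 0.37 and the control arrays at 0.21, -0.060, -0.17 and 0.025, which gave the smallest adjusted p of the members at that age, 0.365 (difference 0.32, SE 0.090). The lowest Cstb-/- value and the highest control value lay next to each other. At P30 the same probe set stood at -0.39, -0.34 and -0.074 against 0.071, -0.14 and 0.070, a difference of -0.27 (SE 0.10), and in culture 1 Cstb-/- and 2 control arrays held one identical value. The other probe set, 1421863_at, was at 0.45 (SE 0.19) at P7, where Cstb-/- array 3 alone stood at 1.05.

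Stx1a, the syntaxin of the plasma membrane, was the member nearest to a call in the P30 cerebellum. Its probe set 1437390_x_at stood at 0.45, 0.59 and 0.46 on the Cstb-/- arrays and at -0.024, 0.071 and -0.047 on the control arrays, with wide separation and little spread within each genotype. The difference was 0.50, or 1.41-fold (SE 0.075, 95% interval 0.33 to 0.67), with an adjusted p of 0.0597. It passed the threshold under 5 of the other settings. The other probe set, 1448366_at, was at 0.17 (SE 0.083) and overlapped, with one control array at 0.15 beside Cstb-/- arrays at 0.17, 0.21 and 0.14. In culture both Stx1a probe sets were lower without overlap. At 1437390_x_at the Cstb-/- cultures stood at -0.20, -0.35 and -0.33 and the controls at -0.088, 0.058, -0.013 and 0.042, a difference of -0.29 (SE 0.075, adjusted p = 0.0462), below the fold of 1.3. Snap25, which joins syntaxin in the same complex, was higher in culture with both probe sets, by 0.33 and 0.35, neither of which passed. At 1447763_at the higher mean came from Cstb-/- array 1 alone, at 0.96, while the other Cstb-/- arrays shared the value 0.048 with 2 control arrays. Vamp2, the main vesicle SNARE of the forebrain and cerebellum, was higher at P7 at both probe sets (0.18 and 0.28) and in culture (0.051 and 0.32), without a call. Vamp4, of endosomal and bulk recycling traffic, lay between -0.033 and 0.19 at P7.

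Proteins that clamp, regulate or take apart SNARE complexes comprised 19 probe sets of 5 genes, of which 16 were higher at P7 (median 0.17), 15 lower at P30 (median -0.097) and 14 lower in culture (median -0.098). Cplx1, a complexin that binds assembled SNARE complexes, did not overlap between genotypes at any of its 3 probe sets at P7. At 1448832_a_at the Cstb-/- arrays stood at 0.14, 0.24, 0.32 and 0.13 and the control arrays at -0.020, 0.034, 0.024 and -0.039. The controls were tight, and the difference was 0.21 (SE 0.069, adjusted p = 0.43). At 1417746_at it was 0.18 (SE 0.072), and at 1417747_at it was 0.35 (SE 0.16), where control array 3 stood at -0.58. In culture 1448832_a_at was lower, at -0.39, -0.23 and -0.41 against -0.068, 0.013, 0.15 and -0.095 (difference -0.35, SE 0.088, adjusted p = 0.0436). The other 2 were lower by less, -0.098 and -0.089.

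Nsf, the ATPase that separates used SNARE complexes, stood at 0.23, 0.39, 0.60 and 0.22 on the P7 Cstb-/- arrays and 0.20, 0.066, -0.29 and 0.023 on the control arrays at 1422455_s_at. The difference was 0.36 (SE 0.12), with Cstb-/- array 3 highest and control array 3 lowest. Its partner Napb (beta-SNAP) was lower in culture at 5 of 6 probe sets, and at 1427470_s_at the Cstb-/- cultures stood at -0.61, -0.29 and -0.23 against -0.029, -0.14, 0.088 and 0.083 (difference -0.37, SE 0.11). Cplx2, the second complexin, had probe sets of both signs in culture, and the lowest, 1421477_at, was at -0.62 (SE 0.20). There the Cstb-/- arrays stood at -0.98, -0.59 and -0.30 and the controls at -0.27, 0.43, -0.18 and 0.015, a wide spread in both genotypes. Stxbp5 (tomosyn), which competes for syntaxin, was lower in culture at all 3 probe sets, by -0.17 to -0.048.

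Priming factors were the least separated group, with 6 probe sets of 4 genes and none free of overlap in any experiment. At P7 5 were higher, and at P30 and in culture 3 were higher and 3 lower. At P7 the highest was Unc13c (Munc13-3, a granule cell form) at 1437319_at, 0.32 (SE 0.13), while its probe set 1430511_at was at -0.016. At P30 the latter was at -0.26 (SE 0.11). Unc13a, the main Munc13 of excitatory terminals, was at 0.10 at P30 and -0.079 (SE 0.14) in culture, and Cadps2 (CAPS2) was at 0.082 (SE 0.095) in culture.

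The active zone scaffold comprised 15 probe sets of 6 genes, 13 higher at P7 (median 0.13), 10 lower at P30 (median -0.044) and 11 lower in culture (median -0.16). Rims2, a Rab3 effector that tethers vesicles and calcium channels, gave the largest difference of all members at P7, 0.56 at 1450761_s_at (SE 0.16, adjusted p = 0.386). The Cstb-/- arrays stood at 0.56, 0.61, 0.61 and 0.44 and the control arrays at 0.21, 0.27, -0.60 and 0.12. The Cstb-/- values were tight, and control array 3 lay far below the other controls. The other 4 Rims2 probe sets were at 0.012 to 0.31. Its relative Rims1 and the linker Rimbp2, which ties RIM proteins to calcium channels, were at 0.15 to 0.20, with overlap. At P30 Pclo at 1419392_at was higher without overlap, by 0.17 (SE 0.085, adjusted p = 0.678).

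In culture the giant scaffolds Bsn (bassoon) and Pclo (piccolo) were lower at all 3 probe sets each. At 1436123_at Bsn stood at -0.34, -0.24 and -1.05 in Cstb-/- and 0.034, -0.044, 0.12 and -0.11 in control cultures, so that array 3 was by far the lowest, and the difference was -0.54 (SE 0.18, adjusted p = 0.0892). Pclo at 1419392_at stood at -0.30, -0.42 and -0.26 against -0.058, -0.12, 0.073 and 0.11, with even spread (difference -0.33, SE 0.085, adjusted p = 0.0466), below the fold of 1.3. Erc2, an organiser of the active zone, was lower by a similar -0.29 (SE 0.10) and did not overlap. Rims2 went against this trend at 1422809_at, 0.44 (SE 0.19), with overlap and with other probe sets as low as -0.23.

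Rab3 GTPases, which guide vesicles to the plasma membrane and leave them at fusion, comprised 8 probe sets of 3 genes. At P7 6 were higher (median 0.036) and at P30 5 were lower (median -0.039). In culture all 8 were lower, with a median of -0.22. Rab3a, the most abundant Rab3 of brain, was one of the 2 called members. At 1422589_at its values were -0.54, -0.36 and -0.45 in Cstb-/- and -0.0071, 0.052, -0.0025 and -0.042 in control cultures. The controls lay close together, and each Cstb-/- culture was clearly below them. Rab3a fell by 0.45 on the log2 scale, or 1.37-fold (SE 0.073, 95% interval -0.62 to -0.28, adjusted p = 0.00945). The call was close to the threshold: it was lost on leaving out any 1 array but Cstb-/- array 2, with an adjusted p of up to 0.0414 and a difference that stayed between -0.50 and -0.40. The second probe set, 1459980_x_at, was lower still, at -0.89, -0.30 and -0.86 against -0.092, 0.069, -0.10 and 0.13 (difference -0.68, SE 0.15, adjusted p = 0.0267), with array 2 nearest the controls. Over the mean of its probe sets Rab3a was at -0.57 (SE 0.098) and the one member gene called in culture.

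At P7 the same probe set of Rab3a pointed the other way. At 1422589_at the Cstb-/- arrays stood at 0.24, 0.31, 0.42 and 0.27 and the control arrays at 0.16, 0.010, -0.22 and 0.044, a difference of 0.31 (SE 0.088, adjusted p = 0.37) that did not pass. The genotypes did not overlap, although the highest control came close to the lowest Cstb-/- array. The second probe set was at -0.016 at P7 and at -0.17 at P30. Rab3c, a close relative, was lower in culture at all 5 probe sets, and at 1432415_at it stood at -0.59, -0.46 and -0.46 in Cstb-/- and 0.025, -0.21, 0.0089 and 0.17 in control cultures (difference -0.50, SE 0.099, adjusted p = 0.0193). The other 4 were at -0.23 to -0.041. Rab3b, with 1 probe set, was at 0.15 at P7 and -0.17 in culture.

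The promoter of Rab3a is shown as that of a member called in culture. In RefSeq on build GRCm38.p6 the 250 bases before its first listed start site lie at chr8:70754453-70754702 on the plus strand, and they hold none of the motifs searched, so that no base is in capitals.
Rab3a: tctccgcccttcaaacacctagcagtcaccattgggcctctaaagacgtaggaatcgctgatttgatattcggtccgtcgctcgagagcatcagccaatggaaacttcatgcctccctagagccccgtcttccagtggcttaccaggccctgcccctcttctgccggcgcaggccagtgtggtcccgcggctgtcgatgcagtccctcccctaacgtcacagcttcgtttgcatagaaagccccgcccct

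Promoter windows of 300 bases, 250 before and 50 after the start site, were listed for 35 of the 43 genes (46 windows). They were rich in G and C, with a median of 61.3% and 18 CpG pairs, beside 52.7% and 7 over all 32851 windows. Of 3 motifs searched on both strands, the cAMP response element TGACGTCA, which reads the same on both, was in 1 member window (2.17%, beside 1.79% of all windows). A part of the RE1 element bound by the neuronal repressor REST, TCAGCACC, was in 2 (4.35% beside 1.65%), and the other part, GGACAGC, also in 2 (4.35% beside 6.56%). None of the 3 overlapped another. The matches lay in Syn1, Unc13a and Rimbp2, and the other 43 windows had none. The Syn1 window, at chrX:20920919-20921168 on the minus strand for the 250 bases before the start site, is shown because it alone held the cAMP response element, and with it TCAGCACC, both in capitals.
Syn1: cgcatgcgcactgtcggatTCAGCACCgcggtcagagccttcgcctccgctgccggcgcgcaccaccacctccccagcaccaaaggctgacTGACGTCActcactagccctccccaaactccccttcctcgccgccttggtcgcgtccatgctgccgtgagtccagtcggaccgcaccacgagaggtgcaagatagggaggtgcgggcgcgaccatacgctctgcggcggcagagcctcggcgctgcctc

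The synapsins, which tether vesicles in the reserve pool, comprised 10 probe sets of 3 genes, of which 8 were higher at P7 (median 0.14), with 4 free of overlap, beside 5.65% of all probe sets. At P30 8 were lower (median -0.069) and in culture 7 were lower (median -0.11). Syn1, with 1 probe set, stood at 0.21, 0.29, 0.37 and 0.16 in P7 Cstb-/- and 0.11, -0.0028, -0.17 and 0.063 in control cerebellum, a difference of 0.26 (SE 0.082, adjusted p = 0.422). It was at -0.041 at P30 and -0.12 in culture. Syn2 stood at 0.48, 0.51, 0.62 and 0.28 against 0.26, 0.11, -0.44 and 0.071 at 1449030_at, where control array 3 was again the lowest (difference 0.47, SE 0.14, adjusted p = 0.374). At 1428460_at, where control array 3 did not stand apart, the Cstb-/- arrays stood at 0.22, 0.36, 0.40 and 0.098 and the controls at 0.085, -0.051, 0.025 and -0.059 (difference 0.27, SE 0.082). Of the 6 Syn2 probe sets 4 were higher at P7 and 1458105_at was the lowest, at -0.15. A probe set of Syn2 that was lower at P30, 1460230_at, stood at -0.28, -0.13 and -0.28 against 0.12, -0.031 and -0.086 (difference -0.23, SE 0.083). In culture it was lower as well, at -0.29, -0.20 and -0.36 against -0.071, 0.0029, 0.029 and 0.039 (difference -0.29, SE 0.073, adjusted p = 0.0445), but 1435511_at of the same gene was at 0.30 (SE 0.11). Syn3, the synapsin of early development, was at 0.077 to 0.14 at P7 and at -0.22 to 0.14 in culture.

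**Figure D4:**
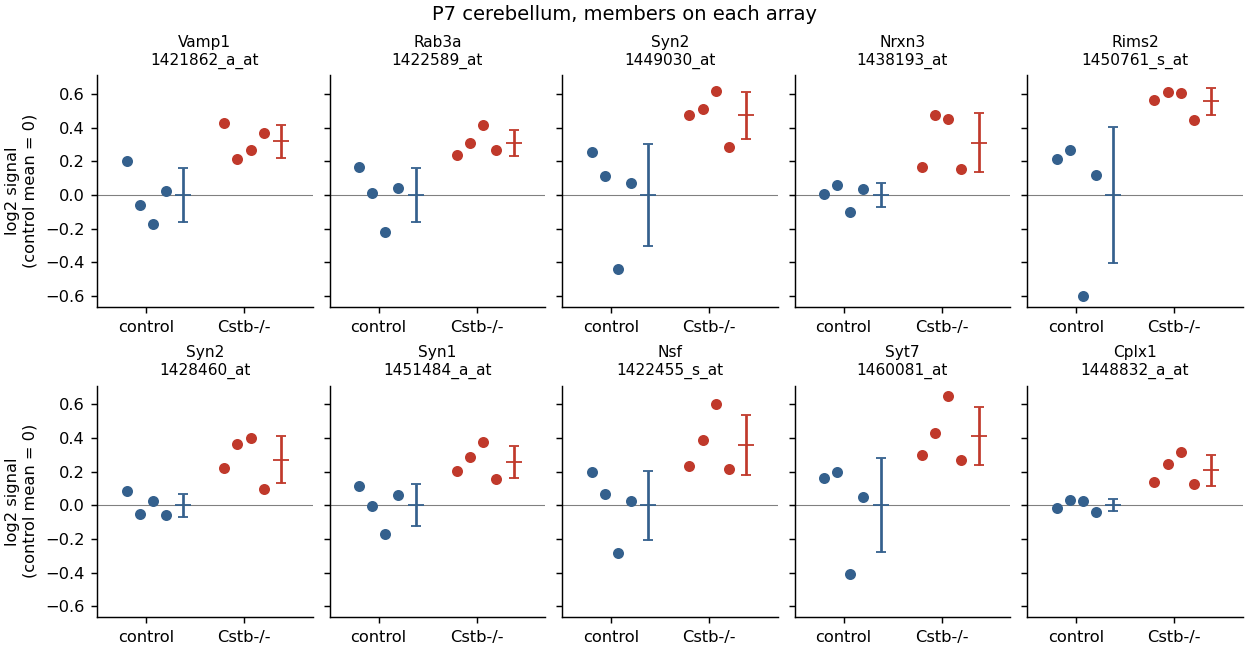
Log2 signal (vertical axis; control mean 0) of 10 member probe sets on each P7 array, with the mean and SD beside the points. In all 10 panels the 4 Cstb-/- arrays lie above the 4 control arrays, and the low control point in several panels is control array 3.

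Proteins of the vesicle membrane comprised 6 probe sets of 4 genes. At P7 5 were higher (median 0.17), at P30 5 were lower (median -0.041), and in culture all 6 were lower (median -0.38). Sv2b, a glycoprotein of synaptic vesicles, was the other called member. At 1434800_at it stood at -0.38, -0.50 and -0.54 in Cstb-/- and -0.097, 0.046, -0.017 and 0.069 in control cultures, with a gap between the groups wider than either group. Sv2b fell by 0.47 on the log2 scale, or 1.39-fold (SE 0.077, 95% interval -0.65 to -0.30, adjusted p = 0.00939). This call was lost on leaving out any 1 of the 7 arrays, with an adjusted p of up to 0.0447 and a difference between -0.52 and -0.44. At P7 the same probe set stood at 0.12, 0.13, 0.19 and 0.14 against -0.020, -0.0015, 0.071 and -0.049, a small difference of 0.14 (SE 0.063) without overlap. Sv2a, a further member of the family, was at 0.19 (SE 0.083) at P7 and -0.33 (SE 0.17) in culture.

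Syp (synaptophysin), the common marker of synaptic vesicles, had the second largest negative difference of the members in culture, -0.94 at 1456249_x_at (SE 0.26, adjusted p = 0.0568). The Cstb-/- cultures stood at -1.16, -0.24 and -1.44 and the controls at -0.30, 0.22, 0.040 and 0.040. Array 2 of Cstb-/- lay within the control range, and the others were far below it. Its other probe set, 1448280_at, was at -0.43 (SE 0.16), with array 3 the lowest at -0.84. At P7 the 2 were at 0.27 and 0.23.

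Endocytosis of vesicle membrane was represented by 9 probe sets of 4 genes and had no common direction at P7 (4 higher, 5 lower) or in culture (4 higher, 5 lower), while 7 were lower at P30 (median -0.082). Dnm1, the GTPase that pinches vesicles off, was higher with both probe sets, and at 1427754_a_at it stood at 0.35, 0.34, 0.64 and 0.33 against 0.012, 0.23, -0.45 and 0.20 (difference 0.41, SE 0.14, adjusted p = 0.434). The highest value was Cstb-/- array 3 and the lowest control array 3. Snap91 (AP180), which recruits clathrin, was lower in culture at 1437817_at, with -1.01, -0.64 and -0.46 for Cstb-/- and 0.00089, -0.11, 0.068 and 0.044 for control (difference -0.70, SE 0.13, adjusted p = 0.0136). The gap was wide, but the second probe set was at 0.042. At P30 1437817_at stood at -0.80, -0.13 and -0.60 against 0.096, 0.072 and -0.17, with overlap (difference -0.51, SE 0.16, adjusted p = 0.5). Synj1, a phosphatase that uncoats vesicles, stood at -0.13, -0.31 and -0.20 at P30 against 0.10, -0.065 and -0.034 at 1436334_at (difference -0.22, SE 0.080), while 1439997_at was at 0.073. Amph (amphiphysin), which brings dynamin to curved membrane, was at 0.021 at P7 and 0.058 in culture.

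Neurexins, adhesion molecules that align the terminal with its target, comprised 7 probe sets of 2 genes with both signs in each experiment. Nrxn3 gave the largest negative difference of all members in culture, -0.98 at 1439629_at (SE 0.25, adjusted p = 0.0461). The Cstb-/- cultures stood at -1.54, -0.34 and -1.04, a wide spread, and the controls at -0.27, 0.19, 0.12 and -0.041. A different probe set, 1438193_at, was at 0.29 (SE 0.30) in culture. At P7 that one stood at 0.17, 0.48, 0.45 and 0.16 against 0.0058, 0.058, -0.10 and 0.036 without overlap (difference 0.31, SE 0.091, adjusted p = 0.379). The 5 Nrxn3 probe sets thus disagreed in sign in every experiment. Nrxn2 at 1455499_at was at 0.33 (SE 0.20) at P30.

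**Figure D5:**
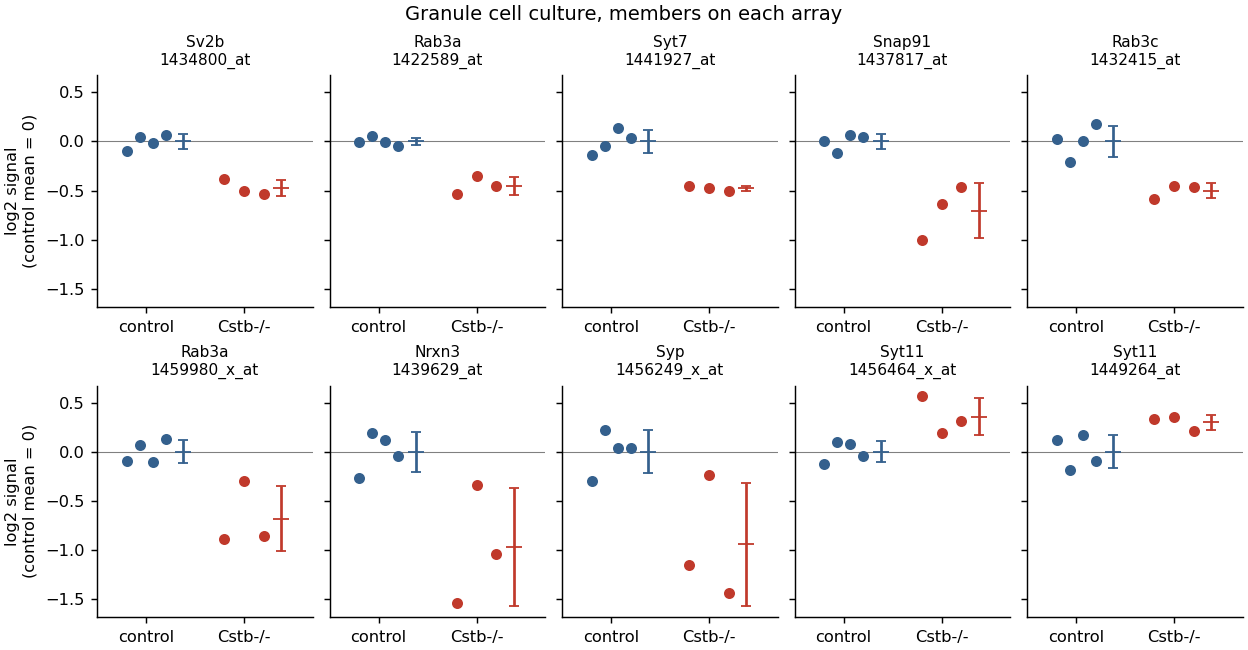
Log2 signal (vertical axis; control mean 0) of 10 member probe sets on each culture array, with the mean and SD beside the points. In 8 panels the Cstb-/- arrays lie below the control mean and for both Syt11 probe sets they exceed it, and the Syp panel alone shows an overlap.

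The genotype difference in culture was compared with that at P7 as a difference of differences, culture minus P7, in 1 limma fit over all 6 groups. Of the 112 probe sets 90 were lower in this contrast, beside 55.5% of all probe sets (median -0.26, beside -0.041), and 22 of 15 genes passed the test, all lower. Of the 22, 21 were higher at P7 and lower in culture, and Rab3a 1459980_x_at was lower in both. The contrast tests the size of the change between experiments and not the sign in each, and no member was called at P7. Over all probe sets 18.7% were called, 12.1% higher and 6.57% lower. The smallest adjusted p was that of Rab3a 1422589_at, 5.40e-05, with a difference of -0.76 (SE 0.11, 95% interval -0.98 to -0.53). It was followed by Cplx1 1448832_a_at at -0.55 (SE 0.099, adjusted p = 6.03e-04) and Sv2b 1434800_at at -0.62 (SE 0.12, adjusted p = 9.07e-04). The most negative was Syp 1456249_x_at at -1.22 (SE 0.30, adjusted p = 0.00688). Syt7 and Syn2 had 3 called probe sets each, Rab3a, Napb and Syp had 2 each, and Sv2a, Rab3c, Bsn, Rimbp2, Syt1, Nrxn3, Vamp1, Dnm1, Cplx1 and Sv2b had 1. Without Cstb-/- culture array 3 the count was 14. With only the 2 experiments in the fit, and not the P30 arrays, it was 17, all lower, where 6866 of all probe sets were called.

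The same contrast between ages, P30 minus P7, called 0 members (limma), beside 0.124% of all probe sets. Of the 112, 90 were lower (median -0.17), beside 54.6% of all probe sets. An unadjusted p under 0.05 was found for 20, beside 7.78% of all probe sets, and 18 of these were lower, beside 3.65%. The smallest adjusted p, 0.16, was that of Stx1a 1437390_x_at, which was higher (0.45, SE 0.11). It was followed by Vamp1 1421862_a_at at -0.59 (SE 0.15, adjusted p = 0.198). Both contrasts use the same P7 arrays, so their values are not independent of each other.

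Other presynaptic genes, from a list of 66 of which 60 were measured with 157 probe sets (chosen by symbol as well), had smaller medians than the members, a difference that was not tested. At P7 113 were higher (median 0.060), at P30 78 were higher and 79 lower (median -0.0026), and in culture 90 were lower (median -0.056). Limma called 0 of them in any experiment, beside 0.00666% (P7), 0.144% (P30) and 2.54% (culture) of all probe sets. At an unadjusted p under 0.05 it found 32, 10 and 50, or 20.4%, 6.37% and 31.8%. The shares of all probe sets were 9.45%, 7.72% and 31.6%. In the contrast of culture minus P7, 18.7% of all probe sets passed, 6.57% lower and 12.1% higher. Of these 157 probe sets 30 passed, 18 lower and 12 higher. Among those lower were Slc17a7 (VGLUT1, the glutamate transporter of granule cell vesicles) at -1.03 (SE 0.33), Rph3a (rabphilin, a Rab3 effector) at -0.91 (SE 0.26) and Syngr1 (synaptogyrin, a vesicle membrane protein) at -0.90 (SE 0.11). Those higher included Sypl at 1.41 (SE 0.20), Vamp3 at 1.02 (SE 0.19), Stxbp3 at 0.86 (SE 0.18) and Vamp8 at 0.66 (SE 0.14), genes that act in membrane traffic of cells in general. The genes called were not counted by function, and a split by function was not tested. No member was called higher in this contrast.

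Marker lists of cell types were compared in the same way, and some had no common direction. At P7 markers of mature granule neurons were higher (30 of 34 probe sets, mean over genes 0.22 to 0.37 on the Cstb-/- arrays and -0.092 to 0.071 on the controls), as were those of oligodendrocytes (31 of 32, 0.31 to 0.75 beside -0.19 to 0.17) and interneurons (14 of 16, 0.15 to 0.49 beside -0.065 to 0.063). Pan-neuronal markers were higher at 16 of 25 (0.039 to 0.25 beside -0.051 to 0.093), and markers of choroid plexus and ependyma were lower at 18 of 20 (-1.93 to -0.33 beside -0.21 to 0.17). Markers of meningeal fibroblasts were lower at 20 of 22 (-0.31 to -0.10 beside -0.035 to 0.059), and genes of mitosis at 27 of 32 (-0.23 to -0.040 beside -0.044 to 0.041). Purkinje cell markers were higher at 12 and lower at 12 of 24, and granule cell precursors at 15 and 16 of 31. Those of astrocytes and Bergmann glia were higher at 14 and lower at 20 of 34. Microglial markers were higher at 12 of 17 and those of smooth muscle and pericytes at 13 of 20. No probe set of these lists was called at P7. At P30 microglial markers were higher at 16 of 17 probe sets, 10 of them called (0.99 to 1.19 beside -0.13 to 0.12). Those of astrocytes and Bergmann glia were higher at 31 of 34, 3 of them called (0.32 to 0.42 beside -0.022 to 0.030). Over all probe sets 0.138% were called higher. Choroid plexus and ependyma markers were lower at 20 of 20 at P30, none of them called, and their array means overlapped (-1.69 to 0.67 beside -0.64 to 0.69). Mature granule neurons (23 of 34), pan-neuronal markers (15 of 25), interneurons (10 of 16) and oligodendrocytes (21 of 32) were also mostly lower. Granule cell precursors (18 of 31), mitosis (19 of 32), meningeal fibroblasts (14 of 22) and smooth muscle and pericytes (14 of 20) were mostly higher. Purkinje cells were higher at 12 of 24, and none of these further lists held a call.

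In culture genes of mitosis were higher at 28 of 32 probe sets, 23 of them called (mean 1.27 to 1.39 on Cstb-/- arrays and -0.099 to 0.075 on controls). Over all probe sets 2.07% were called higher and 0.469% lower. Markers of meningeal fibroblasts were higher at 20 of 22, 14 of them called (1.26 to 1.40 beside -0.053 to 0.11). Granule cell precursors were higher at 24 of 31, 8 of them called (0.18 to 0.27 beside -0.038 to 0.019). Astrocytes were higher at 30 of 34, 6 of them called (0.36 to 0.55 beside -0.085 to 0.20). Smooth muscle and pericytes were higher at 9 of 20, 3 of them called (0.43 to 0.48 beside -0.042 to 0.060). Pan-neuronal markers were higher at 14 and lower at 11 of 25, none called (-0.068 to 0.17 beside -0.057 to 0.046). Those of mature granule neurons were lower at 20 of 34, 2 of them called (-0.23 to 0.0092 beside -0.036 to 0.046). Oligodendrocyte markers were lower at 26 of 32, none of these called, and 1 was called higher. Microglial markers were lower at 11 of 17, choroid plexus and ependyma at 11 of 20 and interneurons at 8 of 16, none called. Purkinje cells were higher at 13 and lower at 11 of 24, with 1 called lower. The part of these lists in the differences of the release machinery was not tested.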

How the data were processed

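RNA of 21 samples was measured on Affymetrix whole-genome mouse expression arrays. The deposited values are log2 signals that the authors made by RMA (background adjustment, quantile normalization and summarization), followed by subtraction of each probe set's median across the samples of an experiment. Of 45101 deposited probe sets 64 array controls were left out and 45037 tested. By the platform annotation 34945 of these had 1 gene symbol, 932 several and 9160 none.

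Genotypes were compared within each experiment with limma 3.58.1 in R 4.3.3 (lmFit and eBayes, two-sided, Benjamini-Hochberg over all probe sets tested). Calls needed a fold of 1.3 and an adjusted p under 0.05, or under 0.01 in the cultures, as in the study's methods. Differences between experiments were contrasts in 1 fit over all 6 groups, called at a fold of 1.3 and an adjusted p under 0.05. Values are given minus the control mean of the experiment. The labels give separate samples but not one animal or culture per sample, so p-values measure the spread between these samples. The labels do not state a pairing, and samples were treated as unpaired. Correlations of the deviations of equal replicate numbers were 0.0058, 0.046 and 0.17 at P7 and -0.035, -0.18 and -0.034 at P30. Between unequal numbers they ran from -0.21 to 0.28 at P7 and from -0.075 to 0.12 at P30. So few values cannot exclude pairing, and the paper gives the controls as littermates.

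The members and gene lists were chosen with earlier results of these data known. Named probe sets were those called, those without overlap and with an unadjusted p under 0.05 (up to 4 a role), and the highest and lowest of each role in each experiment. Alternatives covered thresholds, variance estimate, array weights, normalization, a filter on the 20% of probe sets of lowest SD, the methods' own unpaired test, sex, replicate block, single arrays left out and means per gene. Promoters came from RefSeq (GRCm38.p6). Python 3.11.15, numpy 2.4.6, pandas 2.3.3 and matplotlib 3.10.9 were used. The number of arrays limits the precision.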

Additional observations from a re-analysis of the deposited data

Results flagged for a closer look

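Of 95 groups of 4 arrays examined, 4 held an array far from the others of its group, where chance gives about 1 in 20. At P7 they were Cstb-/- array 3 at Vamp1 1421863_at (1.05, the others 0.22 to 0.29), Cstb-/- array 3 at Dnm1 1427754_a_at (0.64, the others 0.33 to 0.35) and control array 3 at Nrxn3 1433788_at (0.54, the others -0.23 to -0.12). In culture it was control array 5 at Snap25 1447763_at (-0.12, the others 0.025 to 0.048).

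The genotype difference itself differed between culture and P7 cerebellum at 22 of the 112 members, all lower, by limma's contrast. Over all probe sets 18.7% were called in it, 12.1% higher and 6.57% lower. Among the members named, that contrast was -0.76 and -0.67 for Rab3a 1422589_at and 1459980_x_at, -0.55 for Rab3c 1432415_at, -0.55 for Cplx1 1448832_a_at, -0.62 for Sv2b 1434800_at and -0.52 for Sv2a 1423406_at. It was -0.66 and -1.22 for Syp 1448280_at and 1456249_x_at, -0.40, -0.53 and -0.65 for Syn2 1428460_at, 1449030_at and 1460230_at, and -0.45, -0.61 and -0.80 for Syt7 1439633_at, 1441927_at and 1460081_at. It was -0.70 for Syt1 1438282_at, -1.07 for Nrxn3 1439629_at, -0.64 for Bsn 1436123_at, -0.51 for Vamp1 1421862_a_at and -0.42 for Napb 1450888_at.

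Outside the genes measured, the 18S control probe sets stood at 3.39 on Cstb-/- array 5 at P7, where the highest control array of that age was at 0.64.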

How the results depend on the processing

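The median over the members kept its sign under each setting it was recomputed for (array weights, array medians subtracted, quantile normalization, labelled sex, replicate block, means per gene and single arrays left out). Leaving out single arrays gave medians of 0.098 to 0.15 at P7, -0.065 to -0.030 at P30 (the smallest without control array 1) and -0.16 to -0.082 in culture (the smallest without Cstb-/- array 2). Counts of members called were then 0 to 0 at P7 and at P30, 0 to 4 in culture (4 without Cstb-/- array 2 and 0 without any other single array), 0 to 0 for P30 minus P7 and 14 to 27 for culture minus P7. Counts without overlap were 17 to 28 at P7, 21 to 41 at P30 and 31 to 50 in culture, as fewer arrays make overlap rarer.

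At P7 2 members were called with the labelled sex as a covariate, where 1108 of all probe sets were called. At P30 1 was called, Stx1a, with 1 fit over all groups (107 over all probe sets, against 65), array weights (226) and quantile normalization (67). The same held with the methods' test corrected over probe sets past the fold (210 over all). Without the probe sets of lowest SD 3 were called (386 over all). In culture, against 2 (1144 over all probe sets), there were 7 at an adjusted p under 0.05 (4075 over all). There were 8 with 1 fit over all groups (5725) and 8 with array weights (2828). Without the probe sets of lowest SD there were 4 (2883), and with the mean per gene 1 (829 of all genes). Under these settings the calls over all probe sets thus rose too wherever the members called rose. This did not hold for culture minus P7. Without P7 Cstb-/- array 5, 27 members were called there against 22, while the calls over all probe sets fell to 6680 from 8406. There were 0 with robust eBayes, after quantile normalization and with the methods' test corrected over all probe sets. There were 0 as well with the labelled sex, which in culture did not match the sex-linked transcripts on each array. Over all probe sets the count in culture ran from 32 (the methods' test) to 5725 (1 fit over all groups), against 1144. With the mean per gene, which tests fewer features, 11 genes at P7, 9 at P30 and 15 in culture did not overlap, of 43 each, beside 6.55%, 12.9% and 27.2% of all genes. Apart from these constructions the causes were not tested.

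With the replicate number as a block the P7 median was 0.13 and the P30 median -0.054, with 0 called in both. No paired analysis was possible for the cultures because their genotypes share no replicate number.

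Of 29, 22 and 34 probe sets named at P7, P30 and in culture, these changed sign. At P7 array weights gave 0.011 for Vamp4 1422895_at, 0.011 for Napb 1452444_at and 0.042 for Nrxn3 1433788_at, the sex covariate 0.027 for Unc13c 1430511_at, and the block 0.043 for Vamp4 and 0.0072 for Sv2c. Leaving out single P7 arrays gave -0.060 to 0.024 for Unc13c (above 0 without Cstb-/- 2, 0.020, or control 4), -0.079 to 0.028 for Vamp4 (Cstb-/- 5) and -0.064 to 0.0017 for Sv2c (control 4). Without control 3, Pclo 1419392_at (-0.082 to 0.020), Snap91 1437817_at (-0.20 to 0.016) and Nrxn3 1433788_at (-0.19 to 0.065) were above 0. In culture Unc13a was at 0.010 with array weights, and Amph at -0.074 and Cadps2 at -0.0012 after quantile normalization. Leaving out single culture arrays gave -0.17 to 0.10 for Unc13a and -0.085 to 0.0064 for Rab3c 1449798_at (both above 0 without Cstb-/- 2), and -0.093 to 0.67 for Nrxn3 1438193_at (below 0 without Cstb-/- 1). For Amph it gave -0.035 to 0.24, with -0.027 without Cstb-/- 3 and -0.0028 without control 5.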
